A study of Mus musculus with 8 samples.

Results

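The proteasome genes were taken by name. Every symbol of the count table that starts with Psm, then a letter from a to g, then a number, was a member, which gave 49 of 23372 gene symbols. Where a symbol had more than 1 row (4 members), the row with the highest total over the libraries was read. Of the 49 members, 47 passed the filter on low counts and were tested, among 14178 genes tested in all. The comparison was between brown adipose tissue of 10-week-old mice with and without Lsd1, an enzyme that removes methyl groups from histones and is encoded by Kdm1a. Both groups were on the C57BL/6 N background and carried floxed Lsd1 alleles. The 4 knockouts (replicates 512, 513, 515 and 516) also carried Ucp1-Cre, a Cre recombinase driven by the promoter of a gene used by brown adipocytes. The 4 controls (replicates 511, 514, 517 and 518) are labelled as floxed, with no mention of Cre, so effects of the Cre transgene and of losing Lsd1 cannot be told apart. Cells of the tissue that do not use the Ucp1 promoter should keep Lsd1. Per-library values below follow the order of the replicate numbers just given.

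The proteasome is the large protease that degrades proteins tagged with ubiquitin. Its barrel, the 20S core, is built of rings of alpha subunits, which gate the entrance, around rings of beta subunits, a few of which hold the active sites. The 19S cap binds ubiquitinated substrates, removes the ubiquitin, unfolds the protein with a ring of ATPases and feeds it into the core. In cells exposed to interferon, and constitutively in many immune cells, alternative catalytic subunits replace the standard ones and form the immunoproteasome, which makes peptides for display on MHC class I. In brown fat, the transcription factor Nfe2l1 (Nrf1) is known to raise proteasome gene expression during cold exposure.

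The libraries held 33011022 to 38756920 counts over all rows, and 23683798 to 28570446 once each gene was counted once. Kdm1a was at 35.3, 35.96, 33.3 and 36.9 CPM (the count of a gene scaled to a common library size by the TMM method) in the controls and at 13.96, 12.2, 13.2 and 13.01 CPM in the knockouts. The groups did not overlap, and the level of Kdm1a fell by 1.43 on the log2 scale (SE 0.0742, adjusted p = 2.66e-05, edgeR's quasi-likelihood test). In RNA of a whole tissue, fewer cells of a type and less RNA per cell cannot be told apart. The labelled tissue was checked on 10 adipocyte markers, of which Fabp4, Adipoq, Plin1 and Pparg are used by white fat too. The 10 summed to 18590 to 25060 CPM in controls and 12380 to 14000 CPM in knockouts. Fabp4 was the largest part, at 8621 to 12630 CPM in controls and 5510 to 6534 CPM in knockouts. Of these 10 markers 6 were called lower in the knockouts, namely Ucp1, Elovl3, Cox8b and Prdm16 and the shared Fabp4 and Pparg. Ucp1 was at 3794, 3143, 5574 and 5412 CPM in controls and 1202, 1525, 1502 and 1278 CPM in knockouts. The 10 skeletal muscle markers summed to 218 to 4999 CPM in controls and 5993 to 12660 CPM in knockouts. Of these muscle markers 1 (Myh2) was called higher, and the lowest sum was that of control 514. The 6 endothelial markers summed to 939 to 1139 CPM in controls and 958 to 1125 CPM in knockouts, with edgeR adjusted p of at least 0.0731. Nothing in the labels says whether the libraries came from separate litters or days, and p-values measure only the spread between these samples.

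The proteasome genes that changed in the knockout tissue were mostly lower, by modest amounts, and the 2 that were higher were immunoproteasome catalytic subunits, although scaling by library sizes alone gave 3 lower and 4 higher. Of the 47 members tested 19 fell, 2 rose and 26 were not called, at an adjusted p under 0.05 by edgeR's quasi-likelihood test. With upper quartile factors as the scaling, 6 fell and 4 rose, and the 3 that fell with library sizes alone were Psmd5, Psmd6 and Psme3. Over all 14178 genes tested, 1625 fell and 2915 rose with upper quartile factors, and 930 fell and 4077 rose with library sizes alone. With both scalings the share of members that fell was thus close to that of all genes. With 1 library left out, 10 to 21 fell and 0 to 3 rose, while calls in either direction came to 24% to 33.2% of all genes. Without knockout 512, 513, 515 or 516, in that order, 12, 10, 11 and 12 fell. The count that rose was 1 without control 511 or 514, 0 without control 518 or without knockout 513, 515 or 516, and 3 without knockout 512. Lower calls made up 40.4% of the members and 18.9% of all genes tested, and higher calls 4.26% of the members and 15.4% of all genes. Calls in either direction came to 44.7% of the members against 34.4% of all genes. The median log2 fold change of the members was -0.19, against -0.012 over all genes tested. Of the 47 values 42 were negative, against 7273 of the 14178 over all genes. With library sizes alone the members' median was 0.0063 and 23 of their values were negative. Set against the median of all genes, the members' median was -0.18 under TMM, relative log expression, upper quartile factors and library sizes alone. A change of scaling moves all genes by nearly the same amount, so that agreement was fixed in advance and is no check of the scaling. The same groups had TMM factors of 0.898 to 0.961 in the controls and 1.05 to 1.10 in the knockouts, so the size of each difference below depends on the scaling. The median of all genes shifted by 0.10 with upper quartile factors and by 0.20 with library sizes alone, on the log2 scale.

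In 22 of the 47 members (the background was 35.5% of all genes tested) the 4 knockouts and the 4 controls did not overlap. In each of the 22 the knockouts were below the controls. With upper quartile factors 11 members did not overlap, 10 below and 1 above, against 34.1% of all genes tested. With library sizes alone 13 did not overlap, 4 below and 9 above, against 36% of all genes. With both scalings the share of members was smaller than that of all genes. Overlap of groups is given below on the TMM scale. The 22 comprised the 19 members that fell, and Psmd2, Psmd3 and Psmg3. Summed over the 49 members, the level was 4303, 4093, 3944 and 4235 CPM in the controls and 3582, 3496, 3731 and 3757 CPM in the knockouts. The knockout mean was 87.9% of the control mean and every knockout was below every control under TMM scaling, although it was 94.4% with upper quartile factors and 100.8% with library sizes alone, both with overlapping groups. The 15 genes of the alpha ring and the standard beta ring (Psma8 of the testis included) came to 1486 ± 34.2 CPM in controls and 1306 ± 76.6 CPM in knockouts (SD, n = 4 each), 87.9% of control, and the 17 genes of the 19S cap to 2007 ± 129 and 1769 ± 39.1 CPM, 88.1% of control, although with library sizes alone these were 100.7% and 101.1%. The 3 immunoproteasome genes went from 62.5 ± 5.21 to 84.96 ± 13.3 CPM, 135.9% of control, and 156% with library sizes alone. Adipocyte and skeletal muscle markers moved with the group as given above, and their part in these differences was not tested.

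**Figure D1:**
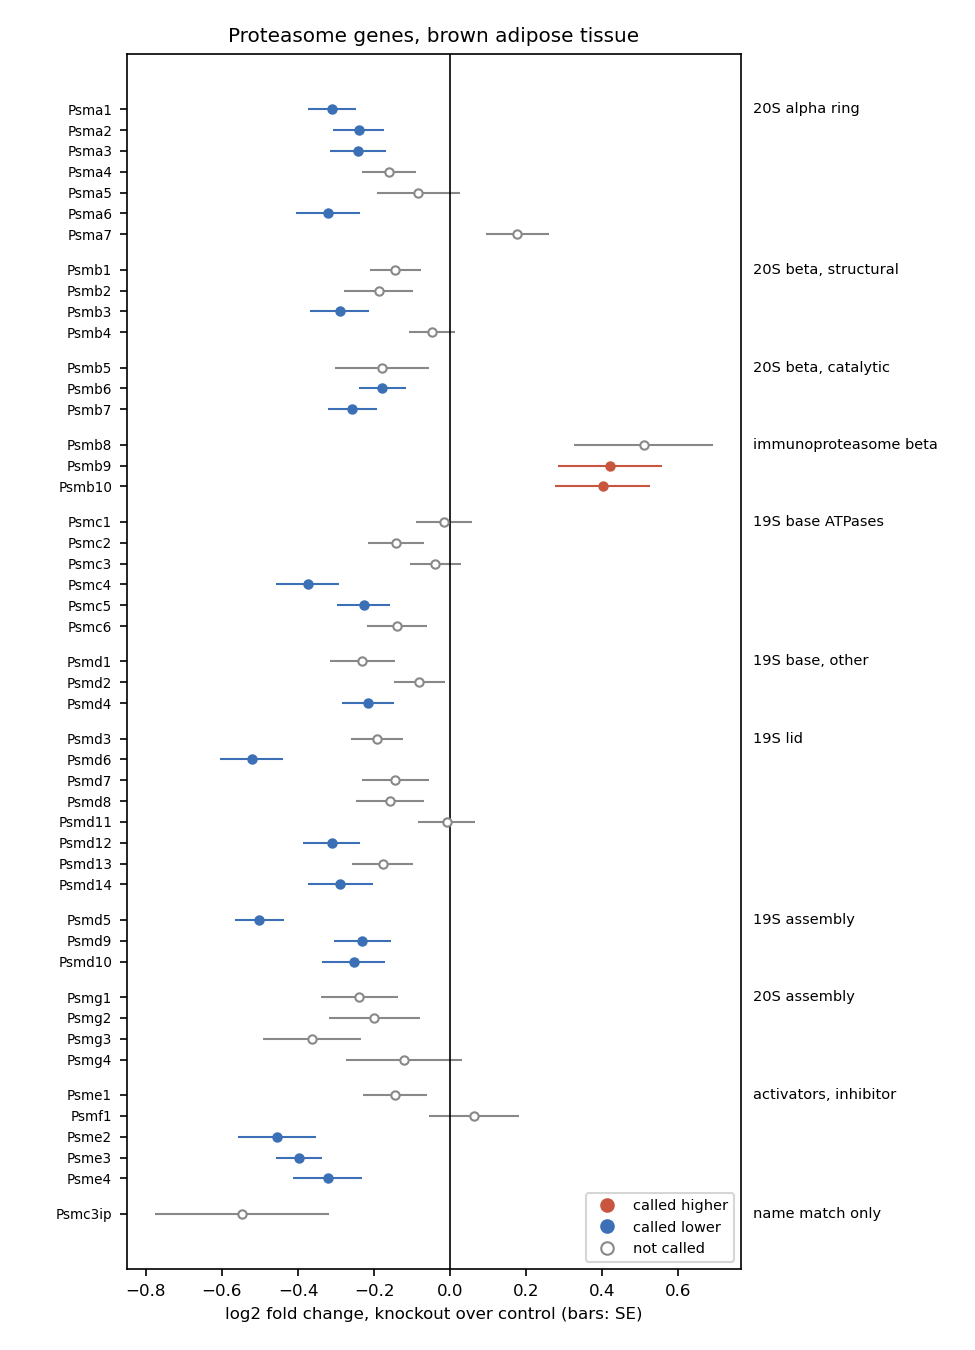
Log2 fold change of the 47 tested members (x axis, knockout over control, bars are the SE of edgeR's fit), grouped by role from top to bottom, with filled points for called members. Values run from -0.55 (Psmc3ip, not called) to 0.51 (Psmb8, not called), 42 of the 47 lie below 0 under TMM scaling and 23 with library sizes alone, and the 3 immunoproteasome genes lie apart on the right.

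Levels of different genes were compared only as CPM per kilobase of transcript. On that scale, the 14 tested constitutive core genes had a median of 108 in controls. Psmb7, a catalytic beta subunit, was highest at 205 ± 6.14 CPM per kilobase (SD, n = 4), ahead of the alpha subunit Psma6 at 189 ± 13.2. The next were Psmd8 of the 19S lid at 164 ± 15.1 and the structural beta subunit Psmb4 at 162 ± 4.08, which overlapped within their SD. The 17 cap genes had a median of 60.8, from 24.2 ± 2.14 for Psmd11 to the value of Psmd8. The 3 immunoproteasome genes had a median of 17.9 in controls and 25.5 in knockouts, far under the constitutive catalytic genes at 116 and 102 CPM per kilobase. The assembly chaperones of the core (median 18.9 in controls) and of the cap (median 13.5), which leave the finished particle, were also low. A single core subunit stood far below its partners, Psma5 at 6.27 ± 0.317 CPM per kilobase in controls and 5.92 ± 0.519 in knockouts, although the alpha subunits enter the ring in equal numbers. Psma5 has 2 near-identical copies in the annotation, the closest matching 98.6% of bases over 76.8% of the transcript. How the authors' alignment placed reads that match several copies is not given in the sources used here.

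**Figure D2:**
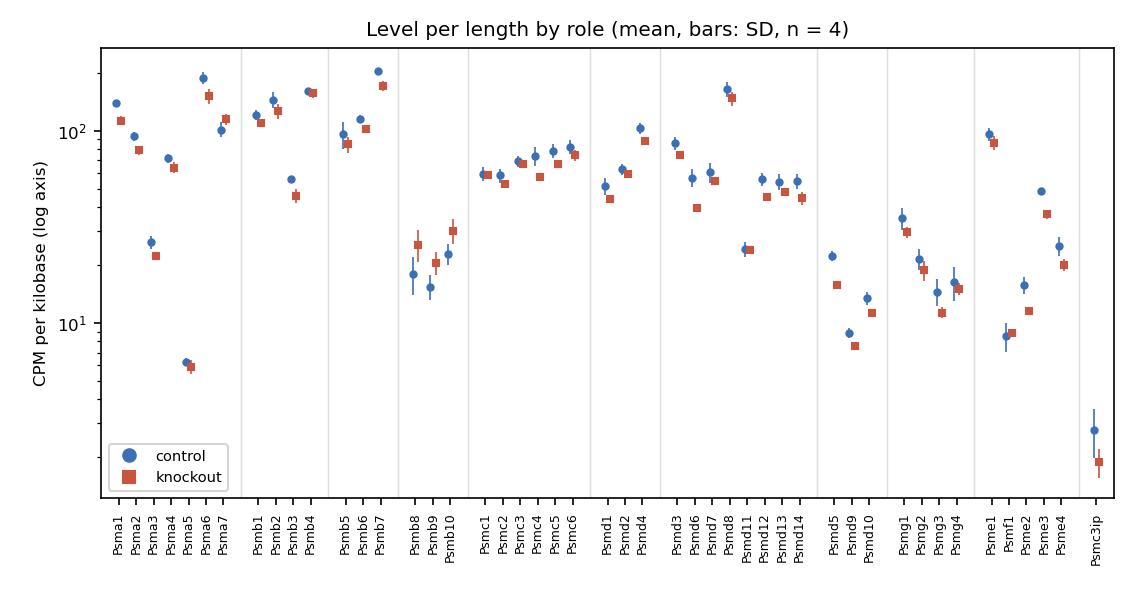
CPM per kilobase of each tested member (log axis, mean with SD, n = 4 per group), controls as blue circles and knockouts as red squares, in order of role. Psmb7 is highest at 205 in controls, and the core subunit Psma5 at 6.27 lies among the lowest members.

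The alpha ring gates the core. Of its 7 tested genes 4 fell (57.1%, against 18.9% of all genes tested), namely Psma1, Psma6, Psma2 and Psma3. The median log2 fold change of the 7 was -0.24. Only Psma1 was called lower with upper quartile factors, and none of the 4 with library sizes alone. Psma1 was at 167, 170.1, 173 and 180.5 CPM in the controls and 132, 134, 144 and 148 CPM in the knockouts, with every knockout below every control (log2 fold change -0.31, SE 0.0632, adjusted p = 0.00598 by edgeR's quasi-likelihood test). Psma6 was at 177, 176, 184 and 204 CPM in the controls and 142, 133, 159 and 160.2 CPM in the knockouts (log2 fold change -0.32 with SE 0.0836, adjusted p = 0.0175 in edgeR), and its lowest knockout was 513. Psma2 was at 93.5, 84.9, 86.9 and 82.02 CPM in the controls and 69.1, 72.05, 74.5 and 78.4 CPM in the knockouts (log2 fold change -0.24 with SE 0.0675, adjusted p = 0.0235 in edgeR), again without overlap. Psma3 also fell (log2 fold change -0.24 with SE 0.0732, adjusted p = 0.0308 in edgeR). Psma4, at -0.16, and Psma5, at -0.084, were not called. Psma7, singled out after its values were seen, was under TMM scaling the only constitutive core gene with a positive log2 fold change, 0.18 (SE 0.0828, edgeR adjusted p = 0.126). Psma7 was at 95.2, 93.8, 78.8 and 83.3 CPM in the controls and 102, 89.6, 101 and 104 CPM in the knockouts, so knockout 513 lay within the range of the controls. With upper quartile factors or library sizes alone, Psma7 was called higher. The call was lost for Psma2 without knockout 512, 513 or 515 (adjusted p up to 0.0664), Psma3 without control 511 or 514 or knockout 512, 513, 515 or 516 (adjusted p up to 0.0755) and Psma6 without knockout 513 (adjusted p up to 0.0518). Psma8, the alpha subunit of the testis, was near 0, with 0 to 3 counts per library, and was not tested.

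The beta ring holds 4 genes without an active site, Psmb1, Psmb2, Psmb3 and Psmb4. Of these 1 fell, Psmb3 (25%, against 18.9% of all genes tested). Psmb3 went from 40.9, 38.3, 41.3 and 41.01 CPM in the controls to 32.2, 29.3, 34.6 and 35.9 CPM in the knockouts (log2 fold change -0.29 with SE 0.0767, adjusted p = 0.0184 in edgeR). The call was lost with upper quartile factors and library sizes alone. The groups did not overlap. Psmb1 was at 127, 123, 114 and 132 CPM in the controls and 111, 105, 114 and 119 CPM in the knockouts, and knockout 516 lay within the control range (log2 fold change -0.14 with SE 0.0679, adjusted p = 0.129 in edgeR). Psmb2 was at 121, 135, 108 and 117 CPM in the controls and 102, 94.6, 117 and 109 CPM in the knockouts (log2 fold change -0.19 with SE 0.0904, adjusted p = 0.136 in edgeR), and these groups overlapped too. Psmb4, the most abundant of the 4 per kilobase, had a log2 fold change of -0.047 and was not called.

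The constitutive catalytic subunits are Psmb6, Psmb7 and Psmb5, which carry the caspase-like, trypsin-like and chymotrypsin-like activities. Of the 3, Psmb7 and Psmb6 fell (66.7%, against 18.9% of all genes tested). Neither was called with upper quartile factors, and Psmb6 turned to 0.020 (edgeR adjusted p = 0.816) with library sizes alone. Psmb7 was at 202, 195, 188 and 194 CPM in the controls and 166, 149.5, 167 and 169.7 CPM in the knockouts, a clean separation (log2 fold change -0.26 with SE 0.0639, adjusted p = 0.0144 in edgeR). Psmb6 was at 122, 123, 116 and 112 CPM in the controls and 102, 101, 109.8 and 106 CPM in the knockouts (log2 fold change -0.18 with SE 0.0612, adjusted p = 0.0491 in edgeR), and its highest knockout, 515, was just under its lowest control, 518. Psmb5 was at 93.8, 63.6, 86.4 and 87.97 CPM in the controls and 67.4, 67.1, 76.8 and 81.8 CPM in the knockouts (log2 fold change -0.18 with SE 0.124, adjusted p = 0.288 in edgeR). Psmb5 was lowest in control 514, below all knockouts, and without that library it was called lower (adjusted p = 0.0396 in edgeR). With 1 library left out, the call was lost for Psmb6 without control 511, 514 or 517 or knockout 512, 513, 515 or 516 (adjusted p up to 0.129). Psmb5 and Psmb6 are shown here because both hold a match to TGACNNNGC, the core of the antioxidant response element that Nfe2l1 and Nfe2l2 recognise. The stretches run up to the first annotated exon, from chr14:54618023-54618245 on the minus strand and chr11:70525107-70525356 on the plus strand of GRCm38.p6, the build mm10 is based on, as RefSeq's promoter table gives them. Each is written 5′ to 3′ along its gene, with motif matches in capitals.
Psmb5: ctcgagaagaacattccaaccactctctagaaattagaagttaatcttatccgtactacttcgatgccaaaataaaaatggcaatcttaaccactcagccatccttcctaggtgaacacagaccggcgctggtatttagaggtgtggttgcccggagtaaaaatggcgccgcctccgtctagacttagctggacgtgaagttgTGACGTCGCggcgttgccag
Psmb6: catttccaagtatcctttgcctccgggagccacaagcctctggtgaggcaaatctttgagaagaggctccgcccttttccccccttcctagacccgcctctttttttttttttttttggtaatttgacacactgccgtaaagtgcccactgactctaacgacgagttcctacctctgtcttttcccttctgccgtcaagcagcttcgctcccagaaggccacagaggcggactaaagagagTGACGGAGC

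Of the 49 members 41 had an entry in that table. Psmb7 was not among them. The matches of different motifs did not overlap. The window searched was the 250 bases before the start and the first 50 after it, on both strands, and N stands for any base. A TGACNNNGC match was in 6 of the 41 members (14.6%), against 12.4% of all 32851 promoters in the table. Of these 6 genes 4 fell, and Psmb5 and Psmc6 were not called. With the immunoproteasome genes, Psmb11 and Psmc3ip set aside, 18 of the 36 members searched fell. Beside Psmb5 and Psmb6 the genes were Psmc6, Psmd12, Psmd9 and Psme4. Their matches, with up to 10 bases on each side, are at chr14:45329587-45329615, chr11:107479278-107479299, chr5:123228149-123228177 and chr11:30771758-30771786, all on the plus strand of GRCm38.p6. That of Psmd9 reads along the gene and the other matches lie on the opposite strand.
Psmc6: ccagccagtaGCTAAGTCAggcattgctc
Psmd12: tctGCTGTGTCAcatttgcccc
Psmd9: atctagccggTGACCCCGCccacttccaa
Psme4: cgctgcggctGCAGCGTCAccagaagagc
CCAAT was in 14 of the 41 (34.1%, against 37.4% of all promoters). The share of members with each of these motifs was thus close to that of all promoters, and a match describes letters, not binding.

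Of the 3 immunoproteasome subunits 2 went the other way (66.7% higher, against 15.4% of all genes tested). Psmb9, Psmb10 and Psmb8 replace Psmb6, Psmb7 and Psmb5 in that order. Psmb9 and Psmb10 rose and Psmb8 just missed the threshold, and with upper quartile factors or library sizes alone all 3 were called higher. Psmb9 was at 11.2, 11.6, 14.9 and 11.1 CPM in the controls and 13.6, 15.5, 17.6 and 18.5 CPM in the knockouts (log2 fold change 0.42 with SE 0.136, adjusted p = 0.0406 in edgeR), and the 3 higher knockouts were above all controls while knockout 512 was below control 517. Psmb10 was at 30.2, 32.7, 26.7 and 24.9 CPM in the controls and 30.5, 37.04, 42.5 and 41.2 CPM in the knockouts (log2 fold change 0.40 with SE 0.124, adjusted p = 0.0340 in edgeR), with knockout 512 inside the control range. Psmb8 was at 19.3, 17.1, 28.4 and 21.9 CPM in the controls and 22.7, 30.7, 34.1 and 35.9 CPM in the knockouts (log2 fold change 0.51 with SE 0.182, adjusted p = 0.0572 in edgeR), again with knockout 512 and control 517 overlapping. None of the 3 separated the groups completely. The calls were sensitive to single libraries. Psmb9 was not called without control 511, 514 or 518 or without knockout 513, 515 or 516, with adjusted p up to 0.110 over all alternatives. Psmb10 was not called without control 517 or 518 or without knockout 513, 515 or 516, with adjusted p up to 0.0939. Psmb8 was called without control 517, without knockout 512, and by DESeq2 and limma-voom.

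**Figure D3:**
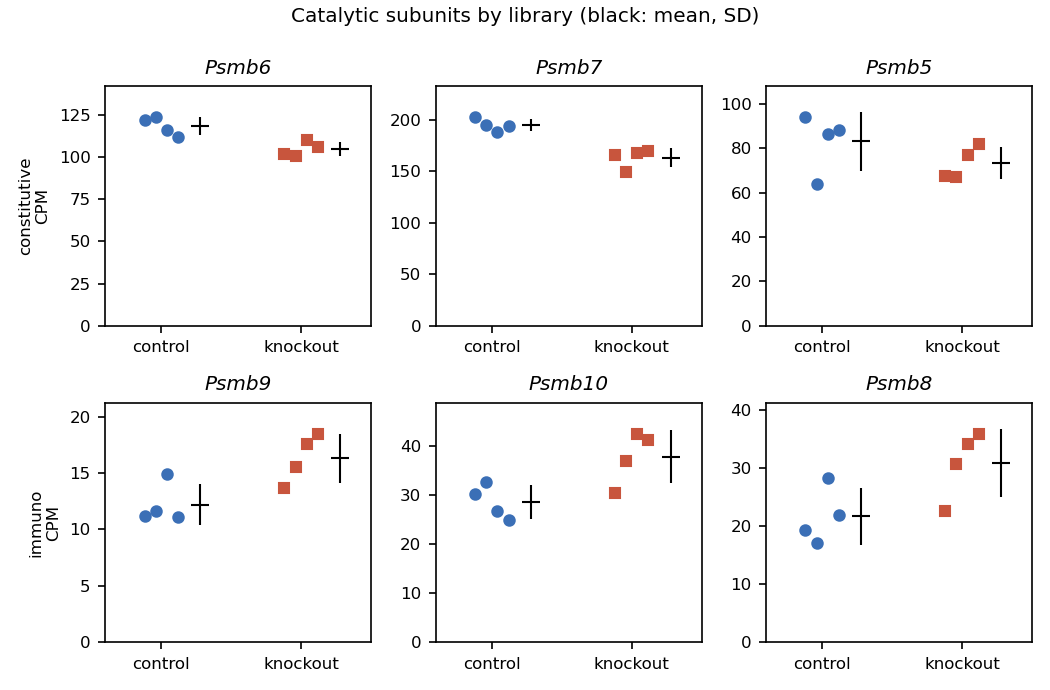
CPM of the catalytic subunits in each library (y axes start at 0), constitutive genes in the upper row and the subunits that replace them in the lower row, with mean and SD (n = 4) in black. Under TMM scaling Psmb6 and Psmb7 lie lower in every knockout than in any control, while Psmb9, Psmb10 and Psmb8 have 3 knockouts above all 4 controls and 1 within their range.

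The exchange of subunits was read as a ratio within each library, which does not depend on scaling between libraries. Psmb8 per Psmb5 was 14.7, 19.2, 23.5 and 17.8% in the controls and 24.1, 32.7, 31.8 and 31.4% in the knockouts, as counts per kilobase. Psmb9 per Psmb6 was 11.8, 12.2, 16.7 and 12.8% in the controls and 17.3, 19.9, 20.7 and 22.6% in the knockouts. Psmb10 per Psmb7 was 11.3, 12.7, 10.8 and 9.80% in the controls and 13.9, 18.8, 19.3 and 18.5% in the knockouts. In all 3 pairs every knockout was above every control. The means went from 18.8 ± 3.63% to 29.97 ± 3.99% for Psmb8 per Psmb5 (SD, n = 4), a log2 difference of 0.68 or 1.60-fold. For Psmb9 per Psmb6 they went from 13.4 ± 2.24% to 20.1 ± 2.19%, 0.60 or 1.51-fold. For Psmb10 per Psmb7 they went from 11.2 ± 1.22% to 17.6 ± 2.48%, 0.66 or 1.58-fold. Each difference had p = 0.0286 by an exact two-sided permutation test, the smallest that 4 against 4 allows, and the Benjamini-Hochberg value over the 3 ratios was also 0.0286. The immunoproteasome genes were known from earlier results of these data when the ratios were chosen, so the ratios are not independent of that observation.

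**Figure D4:**
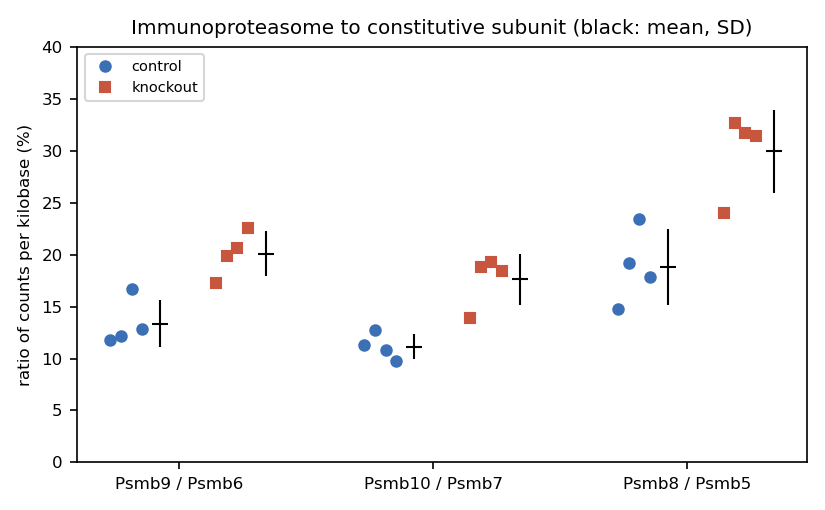
Ratio of counts per kilobase (%, y axis from 0) of each immunoproteasome subunit to the constitutive subunit it replaces, by library, with mean and SD (n = 4) in black. In each pair the 4 knockouts lie above the 4 controls, at 20.1% against 13.4% on average for Psmb9 per Psmb6.

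Some markers of immune cells were also higher. The 13 leukocyte markers measured summed to 215, 208, 429 and 234 CPM in the controls and 279, 327, 371 and 440.1 CPM in the knockouts. Most of each sum came from the MHC class II genes Cd74, H2-Aa and H2-Ab1, none of them called, so it mainly follows those genes. Cd74 alone was at 97.3, 99.3, 204 and 102 CPM in the controls and 127, 151, 169 and 200 CPM in the knockouts. Control 517 was the second highest of the 8, and it was also the control with the highest Psmb8 and Psmb9. Of 12 leukocyte markers tested 3 were called higher (Cd68, Csf1r and Itgax), with a median log2 fold change of 0.37. The macrophage marker Cd68 was at 4.52, 3.95, 4.62 and 3.32 CPM in controls and 5.93, 7.14, 7.06 and 8.82 CPM in knockouts. Ptprc (CD45), carried by all leukocytes, had a log2 fold change of -0.0014 and was at 22.2 CPM in control 517, its highest library. The T cell markers Cd3e and Cd3g lay between 0.150 and 1.23 CPM, and none of the 13 markers was at 0. The part of immune cells in the rise of the immunoproteasome genes was not tested.

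**Figure D5:**
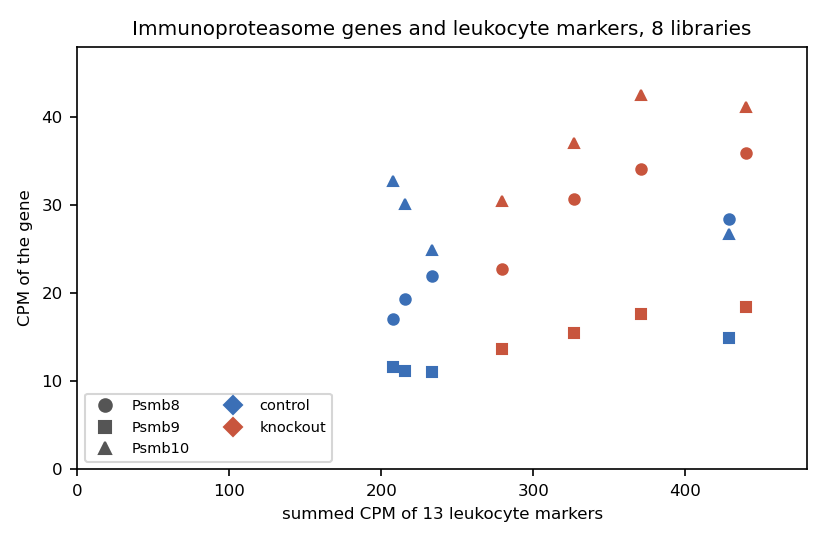
CPM of Psmb8 (circles), Psmb9 (squares) and Psmb10 (triangles) against the summed CPM of the 13 leukocyte markers in each of the 8 libraries, controls in blue and knockouts in red. Most of that sum is Cd74, H2-Aa and H2-Ab1. The single control on the right is 517, at 429 CPM of markers, and its Psmb8 and Psmb9 are the highest of the controls while its Psmb10 is not.

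The stretch upstream of Psmb10, at chr8:105938445-105938642 on the minus strand, held no match to TGACNNNGC or CCAAT and is given for comparison with Psmb5 and Psmb6.
Psmb10: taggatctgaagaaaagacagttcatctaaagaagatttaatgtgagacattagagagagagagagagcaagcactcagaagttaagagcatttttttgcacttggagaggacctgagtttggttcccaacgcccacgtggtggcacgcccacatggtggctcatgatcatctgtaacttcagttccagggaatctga
Psmb11, the catalytic subunit of the thymus, had 0 to 2 counts per library and was not tested.

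The base of the 19S cap contains the ATPase ring that unfolds substrates. Of the 6 ATPase genes 2 fell, Psmc4 and Psmc5 (33.3%, against 18.9% of all genes tested), with a median log2 fold change of -0.14 over the 6. Both calls were lost with library sizes alone, and that of Psmc5 also with upper quartile factors. The median was 0.055 with library sizes alone and -0.069 without control 518. Psmc4 was at 122, 95.5, 102 and 99.6 CPM in the controls and 82.8, 80.6, 81.03 and 79.04 CPM in the knockouts (log2 fold change -0.37 with SE 0.0819, adjusted p = 0.00821 in edgeR), and the knockouts lay within a narrow band below all controls. Psmc5 was at 105, 92.1, 90.98 and 106 CPM in the controls and 85.3, 82.7, 86.1 and 82.2 CPM in the knockouts (log2 fold change -0.23 with SE 0.0699, adjusted p = 0.0331 in edgeR). Psmc2 was at 108, 93.5, 97.4 and 112 CPM in the controls and 88.7, 91.9, 98.3 and 93.1 CPM in the knockouts, and knockout 515 lay within the control range (log2 fold change -0.14 with SE 0.0741, adjusted p = 0.164 in edgeR). Psmc6, Psmc3 and Psmc1 had log2 fold changes of -0.14, -0.039 and -0.017 and were not called. Of the 3 other base genes 1 fell (33.3%), the ubiquitin receptor Psmd4, although it was not called with 3 other scalings. The scaffolds Psmd1 and Psmd2 were not called by edgeR. Psmd4 was at 139, 122, 121 and 125 CPM in the controls and 117, 106, 106 and 107 CPM in the knockouts (log2 fold change -0.22 with SE 0.0688, adjusted p = 0.0373 in edgeR). Psmd1 was at 184, 164, 142 and 169.8 CPM in the controls and 137, 135, 142 and 149.5 CPM in the knockouts (log2 fold change -0.23 with SE 0.0847, adjusted p = 0.0618 in edgeR). Psmd2 was at 203, 178, 176 and 178 CPM in the controls and 175, 169, 176 and 174 CPM in the knockouts (log2 fold change -0.081 with SE 0.0664, adjusted p = 0.373 in edgeR), and control 511 was well above all other libraries. Leaving out 1 library ended the calls of Psmc5 without control 511 or 518 or knockout 512, 513, 515 or 516 (adjusted p up to 0.0960) and Psmd4 without control 511 or 518 or knockout 513, 515 or 516 (adjusted p up to 0.0984). Psmd1 was called without control 517 and by DESeq2.

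The lid removes ubiquitin chains. All 8 lid genes among the members had negative log2 fold changes, as had 7273 of the 14178 genes tested. Of the 8 genes 3 fell, Psmd6, Psmd12 and Psmd14 (37.5%, against 18.9% of all genes tested). With library sizes alone 3 of the 8 were negative and Psmd6 alone was called. Psmd6, on chr14:14112185-14120904 of mm10, had the largest fall of any called member. Psmd6 was at 77.5, 67.2, 65.8 and 80.96 CPM in the controls and 52.5, 49.9, 52.8 and 47.9 CPM in the knockouts, so that the highest knockout was well under the lowest control (log2 fold change -0.52 with SE 0.0832, adjusted p = 0.00198 in edgeR). It was called in all 16 alternatives. Psmd12 was at 94.7, 87.7, 92.3 and 106 CPM in the controls and 73.8, 72.95, 80.6 and 79.4 CPM in the knockouts (log2 fold change -0.31 with SE 0.0746, adjusted p = 0.0123 in edgeR). Psmd14, the deubiquitinase of the lid, was at 93.7, 80.5, 79.4 and 77.5 CPM in the controls and 64.5, 62.1, 72.3 and 72.2 CPM in the knockouts (log2 fold change -0.29 with SE 0.0848, adjusted p = 0.0280 in edgeR). Both separated the groups. Psmd3 (-0.19) also separated them without being called (edgeR adjusted p = 0.0556). Psmd13, Psmd8 and Psmd7, the partner of Psmd14, had values of -0.18, -0.16 and -0.14, and Psmd11, which contacts the core, -0.0093. Leaving out 1 library ended the call of Psmd14 without control 511 or knockout 512 or 513 (adjusted p up to 0.0803). Psmd3 was called without control 517, by DESeq2 and by limma-voom.

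The chaperones that assemble the base, Psmd5, Psmd9 and Psmd10, all fell, where 18.9% of all genes tested did. With library sizes alone only Psmd5 was called. Their summed level went from 87.6 ± 3.08 to 67.8 ± 1.76 CPM, 77.4% of control, and 88.7% with library sizes alone, where the groups overlapped. Psmd5, on chr2:34852089-34870962 of mm10, was at 41.9, 44.5, 46.5 and 48.1 CPM in the controls and 30.9, 32.5, 32.4 and 31.97 CPM in the knockouts. The knockouts were close together and far from the controls (log2 fold change -0.50 with SE 0.0647, adjusted p = 0.000772 in edgeR), and the call held in all 16 alternatives. Psmd9 was at 23.2, 23.9, 20.96 and 23.5 CPM in the controls and 18.6, 20.1, 19.2 and 20.04 CPM in the knockouts (log2 fold change -0.23 with SE 0.0751, adjusted p = 0.0410 in edgeR). Psmd10 was at 19.2, 17.7, 21.3 and 19.7 CPM in the controls and 15.9, 16.96, 15.9 and 16.5 CPM in the knockouts (log2 fold change -0.25 with SE 0.0830, adjusted p = 0.0420 in edgeR). Both separated the groups, by small margins. The 4 chaperones of the core had negative values, as had 7273 of the 14178 genes tested, and 1 of the 4 turned positive with library sizes alone. None of the 4 was called by edgeR, although 2 had an unadjusted p under 0.05, Psmg3 and Psmg1, and DESeq2 called Psmg3. Psmg3 was at 10.4, 12.5, 10.7 and 14.7 CPM in the controls and 8.50, 9.78, 9.63 and 9.68 CPM in the knockouts without overlap (log2 fold change -0.36 with SE 0.128, adjusted p = 0.0544 in edgeR). Psmg1 was at 35.1, 38.9, 28.2 and 33.7 CPM in the controls and 29.3, 26.6, 31.01 and 28.3 CPM in the knockouts (log2 fold change -0.24 with SE 0.102, adjusted p = 0.0980 in edgeR). Psmg2 was at 19.02, 24.5, 21.4 and 25.2 CPM in the controls and 17.9, 17.6, 20.4 and 22.5 CPM in the knockouts (log2 fold change -0.20 with SE 0.120, adjusted p = 0.223 in edgeR). Those groups overlapped, and Psmg4 had a log2 fold change of -0.12. Calls lost without 1 library were those of Psmd9 without control 511, 514 or 518 or knockout 512, 513, 515 or 516 (adjusted p up to 0.0965) and Psmd10 without control 511, 517 or 518 or knockout 512, 513, 515 or 516 (adjusted p up to 0.102). Psmg3 was called without control 511 or 517 and Psmg1 without control 517.

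Alternative caps open the core without ubiquitin. Psme3, the nuclear PA28 gamma activator, and Psme4 (PA200), which acts on nuclear and testis proteasomes, fell, as did Psme2 (PA28 beta), although with library sizes alone Psme3 was the only one called. These 3 were 60% of the 5 activator and inhibitor genes, against 18.9% lower among all genes tested. Psme3 was at 126, 128, 122 and 127 CPM in the controls and 97.3, 97.3, 99.2 and 87.8 CPM in the knockouts, without overlap (log2 fold change -0.40 with SE 0.0606, adjusted p = 0.00163 in edgeR). It was called in all 16 alternatives. Psme2 was at 12.1, 14.1, 15.5 and 13.2 CPM in the controls and 9.38, 10.2, 9.94 and 10.5 CPM in the knockouts (log2 fold change -0.46 with SE 0.102, adjusted p = 0.00918 in edgeR). Psme4 was at 150.2, 146, 156 and 185 CPM in the controls and 133, 133, 114 and 129 CPM in the knockouts (log2 fold change -0.32 with SE 0.0909, adjusted p = 0.0239 in edgeR). All 3 separated the groups. The call did not hold for Psme4 without control 518 or knockout 515 or 516 (adjusted p up to 0.0671). Psme1 (PA28 alpha), the partner of Psme2 and like it an interferon-induced gene, had -0.15 (edgeR adjusted p = 0.207) and the inhibitor Psmf1 had 0.063, neither called. Psme2 fell while Psmb9 and Psmb10, which interferon also induces, rose. Psme2 has a near-identical gene, Psme2b, that matches 99.4% of bases over 82.5% of its transcript and was not analysed here. Psmc3ip matched by name only. It is a recombination factor and no proteasome subunit, and was at 2.14, 2.12, 3.70 and 2.60 CPM in the controls and 1.44, 2.18, 1.85 and 1.72 CPM in the knockouts (log2 fold change -0.55 with SE 0.229, adjusted p = 0.0929 in edgeR). Without Psmc3ip the median of the 46 remaining members was -0.19.

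Genes around the proteasome are given by list, with values for those of smallest p. Over all genes tested 18.9% fell and 15.4% rose. Of 18 proteasome-associated genes 7 fell (38.9%) and 1 rose (5.56%), with a median log2 fold change of -0.17. With library sizes alone 3 fell and 2 rose. The ubiquitin shuttle Ubqln1 went from 208 ± 12.5 CPM in controls to 142 ± 4.40 CPM in knockouts (log2 fold change -0.55 with SE 0.0654, adjusted p = 0.000561 in edgeR). Shfm1 (Sem1), a small subunit of the lid, went from 86.2 ± 2.73 to 66.1 ± 2.24 CPM (log2 fold change -0.38). Its name falls outside the member rule, so the lid and cap counts above leave it out. Ube3c, a ubiquitin ligase that works at the proteasome, went from 92.9 ± 1.70 to 69.1 ± 4.57 CPM (log2 fold change -0.43). Ubqln2 rose (0.41), a close relative of Ubqln1 that moved against it. Of these 4 genes each was called in all 16 alternatives. Pomp, which completes core assembly, fell by 0.21 (edgeR adjusted p = 0.0331), although the call was lost with upper quartile factors, with library sizes alone and without control 511, 514 or 517 or knockout 512, 513 or 515 (adjusted p up to 0.0828). Usp14, a deubiquitinase of the cap, fell by 0.35, a call lost with library sizes alone.

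Nfe2l1 was at 841, 729, 771 and 738 CPM in the controls and 696, 689.5, 732 and 659 CPM in the knockouts (log2 fold change -0.15 with SE 0.0732, adjusted p = 0.141 in edgeR), so a difference was not called and the groups overlapped at knockout 515. Of the 7 genes of its activation pathway and close relatives 2 fell (28.6%, against 18.9% of all genes tested) and 1 rose (14.3%, against 15.4%). Both falls were lost with upper quartile factors and with library sizes alone. The factor Nfe2l3, related to Nfe2l1, was at 1.32, 1.84, 3.88 and 2.00 CPM in the controls and 9.46, 6.47, 3.91 and 10.8 CPM in the knockouts (log2 fold change 1.77 with SE 0.390, adjusted p = 0.00865 in edgeR), and knockout 515 was barely above control 517. Vcp (p97), which pulls Nfe2l1 from the membrane, and Ngly1, which removes its sugars, fell, by 0.20 and 0.24 in log2 units (adjusted p = 0.0181 and 0.0205 in edgeR), calls lost for Vcp without knockout 513 (adjusted p up to 0.0528) and Ngly1 without knockout 513 or 515 (adjusted p up to 0.0646). Nfe2l2 had -0.68 and was not called (edgeR adjusted p = 0.0665), with control 518 at 238 CPM and the other libraries between 74.4 and 117.

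Of 4 genes that supply ubiquitin 1 fell and 1 rose (25% each, against 18.9% and 15.4% of all genes tested). The fall was lost with upper quartile factors and with library sizes alone. The ubiquitin gene Ubb rose from 154 ± 26.6 to 247 ± 23.5 CPM (log2 fold change 0.68 with SE 0.122, adjusted p = 0.00352 in edgeR). The activating enzyme Uba1 went from 405 ± 2.12 to 336 ± 7.36 CPM (log2 fold change -0.27). Of 13 genes of the p97 and ER-associated degradation list 3 fell (23.1%) and 1 rose (7.69%), against 18.9% and 15.4% of all genes tested. With upper quartile factors or library sizes alone 1 fell. Derl1, a channel subunit of the ER membrane, was at 251, 213, 326 and 407 CPM in the controls and 170.1, 152, 159.8 and 163 CPM in the knockouts (log2 fold change -0.89 with SE 0.178, adjusted p = 0.00546 in edgeR), while its relative Derl3 rose by 1.42 from 0.384 ± 0.101 CPM. Ufd1l, a cofactor of p97, had -0.33.

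Of 9 interferon and MHC class I genes 6 rose (66.7%, against 15.4% of all genes tested) and 3 were not called, with a median log2 fold change of 0.28. The same number rose with each of the 3 other scalings. The class I heavy chain gene H2-K1 was at 387, 289, 434 and 339 CPM in the controls and 439.7, 470.4, 579.8 and 648 CPM in the knockouts (log2 fold change 0.56 with SE 0.156, adjusted p = 0.0229 in edgeR). Tap1, the peptide transporter beside Psmb9, went from 20.6 ± 5.27 to 30.3 ± 3.43 CPM (log2 fold change 0.55, edgeR adjusted p = 0.0299). Tapbp (tapasin) went from 199.6 ± 9.32 to 242 ± 23.3 CPM (log2 fold change 0.28). B2m (0.45), H2-D1 (0.44) and Irf1 (0.27) also rose, the last without a call in limma-voom, without the filter on low counts or over all transcript rows. Leaving out 1 library ended the calls of H2-K1 without knockout 515 or 516 (adjusted p up to 0.0642), Tap1 without control 511, 514 or 518 or knockout 513, 515 or 516 (adjusted p up to 0.0827), Tapbp without control 517 or knockout 515 or 516 (adjusted p up to 0.0652), B2m without control 514 or 518 or knockout 515 or 516 (adjusted p up to 0.0914), H2-D1 without control 514 or 518 or knockout 513, 515 or 516 (adjusted p up to 0.114) and Irf1 without control 511, 517 or 518 or knockout 513, 515 or 516 (adjusted p up to 0.128). The leukocyte markers given above moved with this list too, and their part was not tested.

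The authors' deposited table gave 1 tested member as higher (Psmb8, FDR 0.0442) and 5 as lower (Psmc4, Psmd5, Psmd6, Psme2 and Psme3) at an FDR under 0.05. Over all 30521 rows the authors' deposited table has 9.29% higher and 8.15% lower. Its log2 fold changes had the same sign as the edgeR fit here in 47 of 47 tested members. The authors' deposited table gives log2 fold changes of -0.54 for Psmd6, -0.52 for Psmd5 and 0.49 for Psmb8. Several members overlap or resemble other genes. Counting was over both strands, so reads of an overlapping gene cannot be told apart, and in 6 members at least 10% of exon bases overlap an exon of another gene. They are Psmb7 (34.9%, opposite Nek6), Psmc3ip (29.8%, opposite Mlx), Psmg3 (26.8%), Psmb9 (15.7%, opposite Tap1), Psmb5 (12.1%) and Psmb8 (11.4%). These percentages are of GENCODE exons, which can differ from the rows counted, as for Psmb9 with 1352 exon bases against 793 in its row. The row of Psmb9 ends at chr17:34187330, and the Tap1 row read here starts after it, at chr17:34187556. Tap1 rose with Psmb9, and the share of reads common to both was not tested. Near-identical copies (at least 95% of bases over at least 50% of the length) are annotated for 8 members, Psma4, Psma5, Psmb3, Psmb5, Psmc1, Psmd11, Psmd2 and Psme2, and their values are uncertain to that extent.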

How the data were processed

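Brown adipose tissue of 4 control and 4 knockout mice gave total RNA (Trizol) that was sequenced by Illumina's standard protocol, per the labels. TopHat version 2 aligned the reads to mm10 and HOMER counted them, per the submitters' processing notes. The authors deposited estimated counts over the exons of RefSeq transcripts on both strands, per the file headers, and 36.9% of the values are not whole. Before testing, each was rounded to a whole number. Transcript length in bases came from the same table, per the file headers. The authors' log2 fold change and the authors' FDR (an adjusted p-value), per the file headers, were read from the table of their own comparison. The fold (ratio) and signal columns deposited by the authors were not used. Each per-sample column carries the number of 1 library's title.

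The table has 30521 rows. The 829 rows without a symbol held 0.0608% to 0.0824% of a library's counts and were left out. The row with the highest total stood for each of 23372 genes. Genes were kept by filterByExpr with a minimum count of 10 (14178 genes) and scaled by TMM factors. The main test was the quasi-likelihood test of edgeR 4.0.16 (R 4.3.3), two-sided and without covariates, with Benjamini-Hochberg adjustment over all genes and a threshold of 0.05. The SE is the size of the log2 fold change divided by the square root of F. The test was checked on simulated data. Ratios of subunits used a pseudocount of 0.5 counts and an exact permutation test. No pair of replicates agreed within sampling noise (smallest chi-square per degree of freedom 13.1).

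The members, the gene lists and the tests were chosen with earlier results of these data known. Values in every library are given for members with an adjusted p under 0.05 and a log2 fold change of at least 0.5 in size, for up to 3 members of each role with the smallest p, and for both genes of each ratio. For the pathway lists the rule names up to 3 members with the smallest p and Nfe2l1. Other genes (Ubqln2, Pomp, Usp14, Nfe2l2, B2m, H2-D1 and Irf1) were picked after their values were seen. Some genes of the pathway lists and 2 of the 4 motifs searched are not reported here, and the lists' counts are without those genes. The alternatives tried were scaling by relative log expression factors, by upper quartile factors or by library sizes alone, no filter on low counts, DESeq2 1.42.0, limma-voom (limma 3.58.1) with sample weights, all transcript rows, summed rows of a symbol, and each library left out in turn. Exon overlap and copies were read from GENCODE M21, and promoters from RefSeq.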

Additional observations from a re-analysis of the deposited data

Results flagged for a closer look

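Of 94 groups of 4 libraries looked at, 6 held a library far from the other 3, and chance alone sets apart about 1 in 20 groups. Among the controls, Psmb3 was lowest in control 514 at 38.3 CPM (the others lay between 40.9 and 41.3), Psmb9 was highest in control 517 at 14.9 CPM (the others between 11.1 and 11.6) and Psmd2 was highest in control 511 at 203 CPM (the others between 176 and 178). Among the knockouts, Psmd4 was highest in knockout 512 at 117 CPM (the others between 106 and 107), Psmg3 was lowest in knockout 512 at 8.50 CPM (the others between 9.63 and 9.78) and Psme3 was lowest in knockout 516 at 87.8 CPM (the others between 97.3 and 99.2). Control 517, the high library for Psmb9, also had the highest leukocyte marker sum of the controls, 429 CPM, and its part in the Psmb9 value was not tested.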

How the results depend on the processing

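The count of members called lower was 19 and fell to 6 with upper quartile factors and 3 with library sizes alone, while the count called higher went from 2 to 4 with each. Leaving out 1 library moved the lower count between 10 (without knockout 513) and 21 (without control 517) and the higher count between 0 and 3. The higher count was 0 without control 518, or without knockout 513, 515 or 516. Of the 21 called members 3 (Psmd5, Psmd6 and Psme3) were called in all 16 alternatives, and 1, Psmb6, changed sign, to 0.020 with library sizes alone. Over all genes tested, 2189 were higher and 2682 lower, against 2915 and 1625 with upper quartile factors and 4077 and 930 with library sizes alone. The members' median relative to all genes kept its sign in all 16 alternatives, although a change of scaling moves all genes nearly alike and could hardly alter it. With 1 library left out that difference ran from -0.25 to -0.15 for the catalytic subunits, from -0.20 to -0.14 for the associated genes and reached -0.080, from -0.13, for the ATPases without control 518. For the ratios it ran from 0.57 to 0.79 (Psmb8 to Psmb5), 0.54 to 0.71 (Psmb9 to Psmb6) and 0.59 to 0.76 (Psmb10 to Psmb7) on the log2 scale, with exact permutation p between 0.0286 and 0.0571, where the smaller value is the smallest that 3 against 4 libraries allow. The cause of these changes was not tested. No paired analysis was possible because the replicate numbers differ between the groups.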
